A study of Mus musculus with 16 samples.

Results

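The replication-dependent histone genes were taken as every gene of the RNA count table whose symbol begins with Hist1h, Hist2h, Hist3h or Hist4h. This gave 61 of the 13275 genes listed, of which 48 carried enough counts to be tested and 13 did not. They comprise 5 genes for the linker histone H1 and 56 for the core histones, namely 16 for H2A, 16 for H2B, 12 for H3 and 12 for H4. By cluster, 49 lie in Hist1 on chromosome 13, 9 in Hist2 on chromosome 3, 2 in Hist3 on chromosome 11 and 1 in Hist4 on chromosome 6.

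Core histones form the protein spool around which DNA winds to make a nucleosome, and H1 binds the linker DNA between nucleosomes. The clustered genes are transcribed mainly in S phase, when new chromatin must be packed, and most of their mRNAs carry no poly(A) tail but end in a stem-loop bound by the protein Slbp. Activated CD8+ T cells divide rapidly and so make large amounts of histone. Because these RNAs mostly lack a tail, how a library was prepared bears on how many of them it captures. The preparation kit and the use of poly(A) selection are not given in the sources used here, and RNA, labelled as total RNA, was extracted with the mirVana miRNA kit.

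The cells were mouse CD8+ T cells that carry the Pmel T cell receptor, which recognises a melanoma antigen, and an LC3-GFP-RFP reporter of the autophagy protein LC3. They were stimulated with antibodies to CD3 and CD28, each at 2 µg/ml, in IL2 at 100 IU/ml for 3 days, were given CO (an abbreviation that the labels do not expand) for 24 hours, and were then sorted by LC3-GFP signal into a positive and a negative population. RNA was sequenced from 2 positive and 2 negative libraries, and open chromatin was mapped by ATAC-seq in cultured cells, again with 2 positive and 2 negative libraries. A further 4 positive and 4 negative ATAC-seq libraries came from C57BL/6 mice, 1 mouse each, given the sorted cells 12 days after B16-F10 melanoma inoculation, and Vβ13+CD8+ cells were recovered from the tumour 15 days after transfer. Every group was given CO; cells without it were not analysed here. Whether the RNA replicates are separate cultures or mice is not stated in the labels, so p-values measure the spread between these libraries, which may be technical.

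RNA libraries held 14567540 to 17557628 estimated counts, so that 3 counts correspond to 0.167 to 0.210 CPM (the usual depth-normalised count, here on library sizes scaled by edgeR's TMM factors). Of 12022 genes tested with edgeR's quasi-likelihood test at a Benjamini-Hochberg adjusted p under 0.05, 3000 (25%) were called, and the median log2 change over all tested genes was 0.00. The summed level of 4 CD8 T cell markers was 1321 to 1325 CPM in the positive and 1484 to 1540 CPM in the negative libraries, with all 4 called lower; Trac was not listed. Markers of other cells moved both ways at low levels. For B cells 3 of 4 were higher, with the list summing to 11.5 and 10.5 CPM in the positive against 4.14 and 5.45 CPM in the negative libraries, where Ms4a1 and Cd22 were each at 0 in 1 library. Of 3 myeloid markers Mpeg1 was higher and Cd68 lower, with sums of 4.33 to 4.35 against 7.06 to 7.18 CPM, and the NK marker Klrb1c was lower, at 1.56 and 2.95 against 5.76 and 7.69 CPM. Cd4 was higher and Zbtb7b lower, and the 3 CD4 T cell markers summed to 53.9 to 59.1 against 70.7 to 78.5 CPM. The part of these markers in the histone results was not tested.

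Histone genes were lower in LC3-GFP positive cells. Their summed level was 70.8 and 69.4 CPM in the 2 positive libraries and 111 and 144 CPM in the 2 negative libraries, 1.82-fold lower in the positive cells (log2 -0.86). The groups did not overlap, and the negative libraries lay farther apart than the positive ones. In counts, the sums were 1271 and 1106 against 1720 and 2057, which is 0.00708 to 0.00724% of all counts in positive and 0.0109 to 0.0141% in negative libraries. In these bulk RNA libraries, fewer cells in S phase, less histone RNA per cell and a different capture of RNAs without a poly(A) tail cannot be told apart.

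Of the 48 tested members 24 fell and 0 rose, where 13.6% of all tested genes fell and 11.3% rose. The 24 include the copy rows Hist1h2ao, Hist1h2bq, Hist1h2br, Hist2h2aa1, Hist2h2aa2 and Hist2h3c2, described below, which are not all separate measurements. The median log2 change of the 48 was -1.11, and 44 of the 48 estimates were below 0. Genes called lower across the whole table had a median decrease of 0.378 on the log2 scale. Of the 48, 9 passed the low-count filter with no positive library over it: Hist1h1a, Hist1h2af, Hist1h2bm, Hist1h2bq, Hist1h2br, Hist1h3d, Hist1h3i, Hist1h4f and Hist2h2bb. Their place among the tested genes thus rests on the negative libraries alone. Among the called members, Hist1h1b, Hist1h2ab, Hist1h2ak, Hist1h2bg, Hist1h4h, Hist1h4m and Hist3h2a had only 1 positive library but both negative ones over the filter. The positive libraries alone would not have passed these members either. The 61 members were therefore also fitted without a filter. Then 25 fell and 0 rose, where 12.3% of all listed genes fell, and the median was -1.25. In 41 of the 61 members both positive libraries lay below both negative ones, against 30.1% of all listed genes. Only Hist1h2ag had both positive libraries above both negative ones (29.3% of all listed genes), and 19 overlapped.

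How many members passed the test rested on the tool and on single libraries. DESeq2 called 9 members lower, where it called 8.03% of all genes lower. Leaving out 1 library gave 13 without positive replicate 1, 12 without positive replicate 2, 28 without negative replicate 1 and 16 without negative replicate 2. Hist1h2ak, Hist1h3d, Hist1h3e, Hist1h4h, Hist1h4k and Hist2h2aa1 fell in each of these 4 fits, and 5 of them, all but Hist2h2aa1, also with DESeq2. Calls lost without positive replicate 1 were those of Hist1h1a, Hist1h1b, Hist1h1c, Hist1h1d, Hist1h2af, Hist1h2ao, Hist1h2bq, Hist1h2br, Hist1h4d, Hist1h4f, Hist1h4m and Hist3h2a. Without positive replicate 2 the calls of Hist1h1b, Hist1h1d, Hist1h2ab, Hist1h2af, Hist1h2bg, Hist1h2bq, Hist1h2br, Hist1h3i, Hist1h4d, Hist1h4f, Hist1h4m, Hist2h2aa2 and Hist3h2a were lost. Without negative replicate 1 those of Hist1h1c, Hist1h2af, Hist1h4f, Hist1h4m, Hist2h2aa2 and Hist3h2a were lost. Without negative replicate 2 those of Hist1h1d, Hist1h2ab, Hist1h2ao, Hist1h2bg, Hist1h2bq, Hist1h2br, Hist1h4d, Hist1h4f and Hist2h3c2 were lost, and Hist2h2bb no longer had enough counts to be tested. Hist1h3d, named above among the members that fell in each fit, passed the filter through the negative libraries alone. Hist1h2ak and Hist1h4h, also named there, had only 1 positive library over the filter. The summed log2 change of all members stayed between -1.04 and -0.67 when single libraries were left out.

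**Figure D1:**
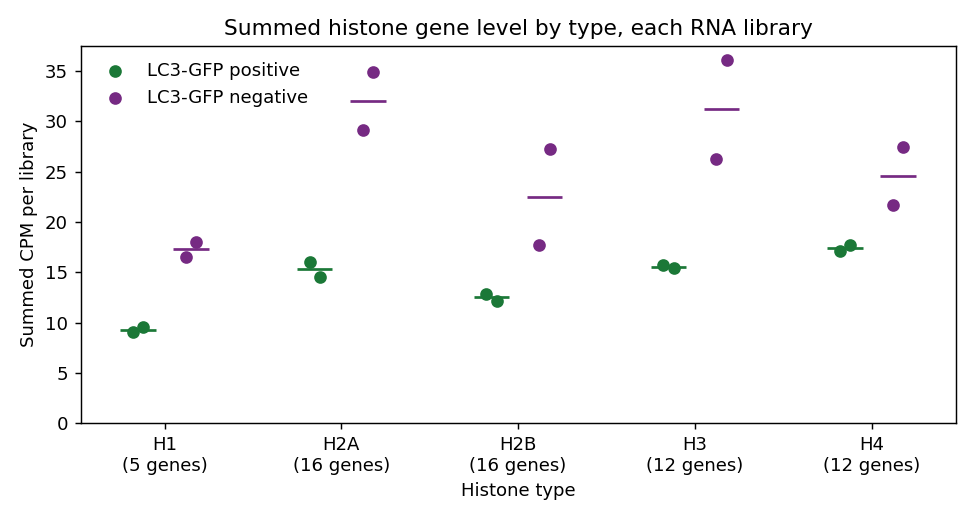
Summed CPM (vertical axis) of the genes for each histone type (horizontal axis); points are single RNA libraries, green LC3-GFP positive and purple LC3-GFP negative, and short lines are the means of 2 libraries. In all 5 types both positive libraries lie below both negative ones, with the smallest gap for H4.

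By type, the sums of H1, H2A, H2B, H3 and H4 genes were each lower in both positive than in both negative libraries, as the plot of summed levels by type shows. H1 genes summed to 9.08 and 9.54 CPM in the positive and 16.5 and 18.04 CPM in the negative libraries, 1.85-fold lower. Core genes summed to 61.7 and 59.9 against 94.8 and 126 CPM, 1.81-fold lower. The linker share of histone counts was 12.8 and 13.7% in positive and 14.8 and 12.5% in negative libraries, so that it overlapped between the groups. Whether linker and core genes differ in their change was not tested.

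Among the core types the ratio of negative to positive sums was 2.10 for H2A (16.0 and 14.6 against 29.2 and 35.0 CPM) and 2.00 for H3 (15.8 and 15.4 against 26.3 and 36.2 CPM). It was 1.79 for H2B (12.9 and 12.2 against 17.7 and 27.3 CPM) and 1.41 for H4 (17.1 and 17.7 against 21.7 and 27.4 CPM). H4 took 24.2 and 25.6% of histone counts in positive and 19.5 and 19.1% in negative libraries, without overlap. This order of types did not hold within the clusters. In Hist1 alone the ratios were 1.56 for H2A, 1.80 for H2B, 2.03 for H3 and 1.68 for H4. In Hist2 alone they were 4.53, 1.73, 1.95 and 0.92 in the same order, with H4 there being Hist2h4 only. Differences in change among the core types were not tested either. Counts of called genes were 4 of 5 tested for H1, 7 of 10 for H2A, 4 of 11 for H2B, 4 of 12 for H3 and 5 of 10 for H4. Here Hist1h2bq and Hist1h2br are separate H2B calls although their counts are identical. Likewise Hist2h2aa1 and Hist2h2aa2 are separate H2A calls although they share coordinates. Median log2 changes were -0.97, -1.33, -0.90, -1.11 and -1.16 in that order. Without the filter, over all members of each type, they were -0.96, -1.43, -1.59, -1.11 and -1.16, so that the place of H2B in this order rests on the filter, which 4 of its 11 tested genes passed through the negative libraries alone.

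All 5 linker genes lay lower in both positive than in both negative libraries, and each has a whole count in every library. Hist1h1a was at 0 and 0.126 CPM in the positive and 0.841 and 0.979 CPM in the negative libraries. That is 2 against 27 counts in all, a 15.4-fold ratio with an exact 95% interval of 3.86 to 133 that covers counting error only. The gene passed the low-count filter through the negative libraries alone. Its log2 change was -3.77 ± 0.89 (SE; edgeR adjusted p = 0.0046), and it was no longer called without positive replicate 1 (edgeR adjusted p = 0.0818, the highest over the alternatives, the lowest being 0.000753). The H1 subtypes differ mainly in their tails, and Hist1h1a and Hist1h1b are the subtypes most tied to dividing cells.

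Hist1h1b measured 0.557 and 0.691 CPM in the positive and 1.81 and 1.96 CPM in the negative libraries (log2 -1.59 ± 0.43, edgeR adjusted p = 0.0111). Hist1h1c, one of the H1 genes that resting cells also use, measured 2.79 and 3.58 against 6.15 and 5.10 CPM (log2 -0.83 ± 0.23, edgeR adjusted p = 0.0142). Hist1h1d measured 1.56 and 1.32 against 2.52 and 3.15 CPM (log2 -0.97 ± 0.33, edgeR adjusted p = 0.0404). In these 3 genes too the groups did not overlap. Hist1h1e stood at 4.18 and 3.83 against 5.18 and 6.85 CPM and did not pass the test (log2 -0.58 ± 0.22, edgeR adjusted p = 0.0596), although its groups did not overlap either. It was called lower with replicate as a block (edgeR adjusted p = 0.0442) and without negative replicate 1 (0.0127, the lowest over the alternatives, the highest being 0.327). DESeq2 called Hist1h1a among the 5.

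Per kilobase of the RefSeq gene span, Hist1h1e and Hist1h1c were the most abundant linker genes, at means of 6.41 and 6.08 CPM per kb over the 4 libraries. Hist1h1d followed at 2.75, Hist1h1b at 1.58 and Hist1h1a at 0.653 CPM per kb. The 2 H1 genes with the lowest levels per length were thus also those with the largest log2 changes. Among all 48 tested genes, the 10 of highest mean CPM summed 1.46-fold lower with 4 of 10 called, and the other 38 summed 2.16-fold lower with 20 of 38 called. All 9 members that passed the filter with no positive library over it are among these 38, so the larger fold and count there are partly set by the filter.

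The start regions of H1 genes are known for a CCAAT element and the H1 box AAACACA, and both were present here. The 250 bases before the start are shown for the linker gene that changed most and for the one not called with all libraries, since they differ in the H1 box. Both are from RefSeq, build GRCm38.p6: Hist1h1a at chr13:23763418-23763667 on the plus strand and Hist1h1e at chr13:23622559-23622808 on the minus strand, written 5′ to 3′. Capitals mark the CCAAT element, the H1 box and the TATA box motif TATAAA on either strand.
Hist1h1a: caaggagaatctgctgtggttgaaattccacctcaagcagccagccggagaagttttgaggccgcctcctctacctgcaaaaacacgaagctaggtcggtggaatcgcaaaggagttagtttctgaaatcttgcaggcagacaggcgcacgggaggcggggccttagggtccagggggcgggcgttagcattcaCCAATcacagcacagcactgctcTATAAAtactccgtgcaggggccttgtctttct
Hist1h1e: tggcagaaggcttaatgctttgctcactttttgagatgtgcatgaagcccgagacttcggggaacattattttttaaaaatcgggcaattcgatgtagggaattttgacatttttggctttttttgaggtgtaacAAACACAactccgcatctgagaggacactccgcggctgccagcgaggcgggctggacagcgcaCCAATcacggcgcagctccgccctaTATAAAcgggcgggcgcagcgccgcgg
The CCAAT element starts 51 to 56 bases before the start site in all 5 H1 genes. AAACACA lies 112 to 122 bases before the start in Hist1h1b, Hist1h1c, Hist1h1d and Hist1h1e and was not found in this window of Hist1h1a. TATAAA lies 26 to 33 bases before the start in all but Hist1h1c, where it was not found.

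The H2A protein pairs with H2B in a dimer that is part of the nucleosome. Hist1h2ak measured 0.446 and 0.628 CPM in the positive and 2.46 and 2.80 CPM in the negative libraries. The groups lay far apart, 4.87-fold on the fitted scale (log2 -2.29 ± 0.42, edgeR adjusted p = 0.000545). Hist1h2af was at 0.639 and 0.523 against 1.90 and 1.17 CPM (log2 -1.45, edgeR adjusted p = 0.0323), and Hist1h2ab at 1.07 and 0.587 against 1.70 and 2.69 CPM (log2 -1.41, edgeR adjusted p = 0.0225). Hist1h2ao, treated below as a copy of Hist1h2ap, fell as well (log2 -1.06, edgeR adjusted p = 0.0137). Hist1h2ag had both positive libraries above both negative ones. It measured 4.12 and 3.61 CPM in the positive and 1.85 and 2.72 CPM in the negative libraries and did not pass the test (log2 0.75 ± 0.28, edgeR adjusted p = 0.0582), but did with library size as the scaling (0.0399), with replicate as a block (0.0448) and without negative replicate 2 (0.0197), the highest over all alternatives being 0.299.

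Of the H2B genes in Hist1, Hist1h2bg fell, with 0.877 and 0.381 CPM in the positive against 1.02 and 3.004 CPM in the negative libraries (log2 -1.62, edgeR adjusted p = 0.0334). Its change rests on negative replicate 2, without which the edgeR adjusted p was 0.501. Hist1h2bq and Hist1h2br, listed with the same values, were at 0.265 and 0.510 against 1.05 and 1.48 CPM (log2 -1.68, edgeR adjusted p = 0.0303). The H2B genes of highest level did not pass. Hist1h2bc was level, at 3.64 and 3.39 against 3.69 and 3.69 CPM (log2 -0.07, edgeR adjusted p = 0.861), and Hist1h2bk overlapped between groups, at 2.14 and 1.74 against 1.57 and 2.72 CPM (log2 -0.13, edgeR adjusted p = 0.835).

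H3 and H4 form the tetramer at the core of the nucleosome. Hist1h3e had the lowest p of all members. It measured 2.01 and 1.95 CPM in the positive and 5.63 and 7.27 CPM in the negative libraries, 3.25-fold lower without overlap (log2 -1.70 ± 0.25, edgeR adjusted p = 7.54e-05; 7.52e-05 with DESeq2, 1.19e-08 to 0.000206 over all alternatives). Its counts were whole in every library. Hist1h3i stood at 0.417 and 0.273 against 1.47 and 1.60 CPM (log2 -2.23, edgeR adjusted p = 0.00415). Hist1h3d was lowest of these, at 0.142 and 0.0981 against 0.875 and 1.45 CPM, with about 4 against 34 estimated counts, a 9.68-fold ratio with an exact 95% interval of 3.45 to 37.5 (log2 -2.93 ± 0.67, edgeR adjusted p = 0.00364). Both Hist1h3i and Hist1h3d passed the low-count filter through the negative libraries alone. The most abundant H3 gene of the cluster, Hist1h3c, did not pass, at 4.18 and 5.02 against 5.82 and 5.66 CPM (log2 -0.32, edgeR adjusted p = 0.273).

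Among H4 genes, nearly all of which encode the same protein, changes ran from lower to slightly higher. Hist1h4h measured 0.680 and 0.251 CPM in the positive and 1.67 and 3.14 CPM in the negative libraries (log2 -2.33 ± 0.50, edgeR adjusted p = 0.00211). Hist1h4f stood at 0.223 and 0.440 against 1.17 and 1.19 CPM (log2 -1.83, edgeR adjusted p = 0.0232), and Hist1h4k at 0.794 and 0.816 against 2.35 and 2.54 CPM (log2 -1.59, edgeR adjusted p = 0.00522). Hist1h4d fell too, with 1.00 and 0.816 against 1.68 and 3.01 CPM (log2 -1.34, edgeR adjusted p = 0.0223). In these 4 the groups did not overlap. Hist1h4i overlapped, at 4.96 and 5.46 against 5.07 and 3.86 CPM (log2 0.22, edgeR adjusted p = 0.504), and Hist2h4 did as well, at 6.74 and 6.22 against 5.18 and 6.78 CPM (log2 0.12, edgeR adjusted p = 0.697). Among the members with a RefSeq span under 1000 bases, these 2 were the most abundant per length, at 16.2 CPM per kb for Hist2h4 and 12.0 for Hist1h4i, with Hist1h3c next at 10.8.

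**Figure D2:**
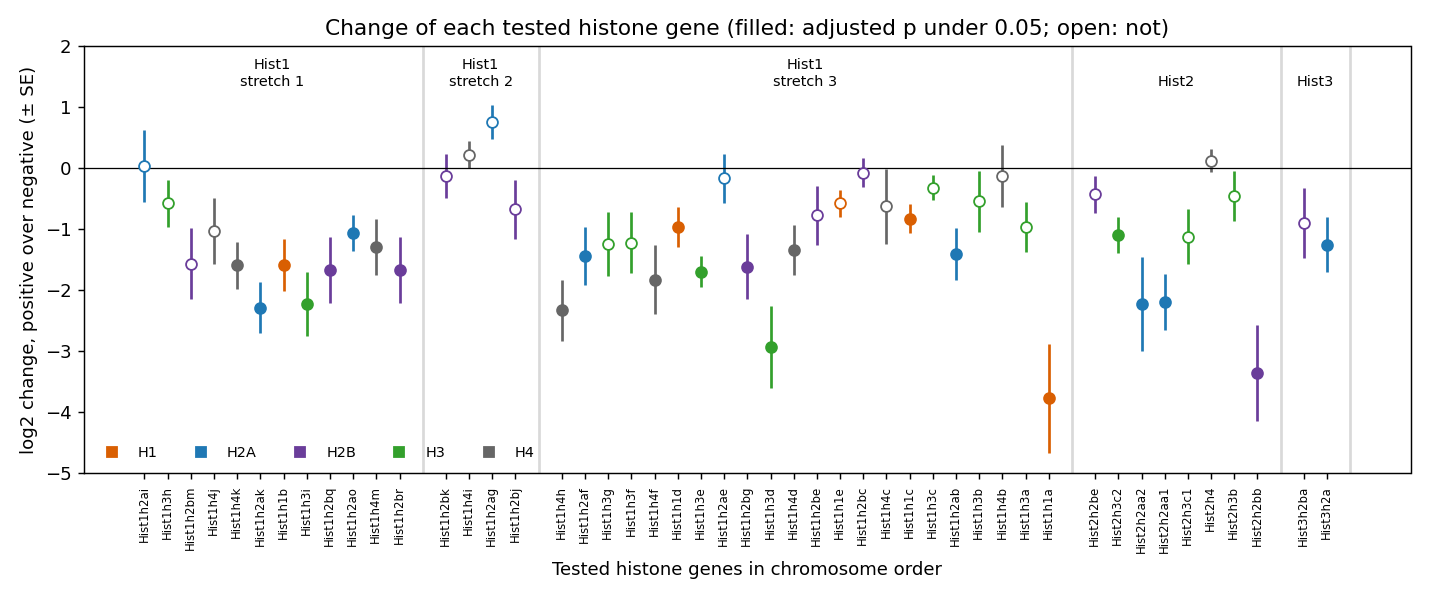
Log2 change of each of the 48 tested histone genes, LC3-GFP positive over negative (vertical axis, bars are ± 1 SE), in chromosome order (horizontal axis), coloured by histone type, filled where the edgeR adjusted p was under 0.05. The 24 filled points lie below 0 and occur in stretches 1 and 3 of Hist1, in Hist2 and in Hist3, while the 4 points of stretch 2 are open.

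Along chromosome 13 (GRCm38 coordinates) the Hist1 genes fall into 3 stretches separated by more than 100 kb. Stretch 1 (chr13:21715711-21837530, 16 genes) summed to 9.48 and 8.75 CPM in the positive and 21.3 and 26.9 CPM in the negative libraries, 2.65-fold lower, with 8 of 12 tested genes called and a median log2 change of -1.58. Among these calls Hist1h2bq and Hist1h2br have identical counts. Stretch 3 (chr13:23531044-23764412, 28 genes, 4 of the 5 linker genes among them) summed to 32.3 and 30.8 against 53.8 and 65.7 CPM, 1.89-fold lower, with 11 of 22 called and a median of -1.09.

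Stretch 2 (chr13:22035122-22043658) holds 5 genes, Hist1h2ag, Hist1h2ah, Hist1h2bj, Hist1h2bk and Hist1h4i. It summed to 11.8 and 12.7 CPM in the positive and 10.2 and 10.3 CPM in the negative libraries, so both positive libraries were above both negative ones (log2 of the sums 0.26). None of its 4 tested genes was called, and their median log2 change was 0.05. It took 16.7 and 18.3% of histone counts in positive and 9.19 and 7.18% in negative libraries. Of the 5 genes only Hist1h2ag had both positive libraries above both negative ones, at 4.12 and 3.61 against 1.85 and 2.72 CPM. Hist1h2bj had both below, at 0.557 and 0.879 against 1.22 and 1.02 CPM, and the other 3 overlapped. The higher sum was therefore not shared by the genes of the stretch. This stretch was thus the only one of the 3 whose summed level was not lower in the positive cells, and whether the stretches differ in their change was not tested. Of the values of its 5 genes, 75% were fractional estimated counts, against 67.2% in stretch 1 and 54.5% in stretch 3.

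In Hist2 (chr3:96220413-96270192) 4 of 8 tested genes fell, with sums of 16.0 and 15.7 CPM in the positive and 22.5 and 38.3 CPM in the negative libraries, 1.92-fold lower. Among these calls Hist2h2aa1 and Hist2h2aa2 share coordinates. Hist2h2bb, an H2B gene, measured 0.111 and 0.0628 against 0.712 and 1.26 CPM. That is 3 against 29 counts, an 11.01-fold ratio with an exact 95% interval of 3.41 to 56.5 (log2 -3.35, edgeR adjusted p = 0.00443). The gene passed the low-count filter through the negative libraries alone. Hist2h2be, also an H2B gene, overlapped between groups, at 2.56 and 2.01 against 2.46 and 3.78 CPM (log2 -0.43, edgeR adjusted p = 0.332). Hist2h3b, which encodes H3, did not pass either, at 1.41 and 1.25 against 1.19 and 2.54 CPM (log2 -0.46, edgeR adjusted p = 0.463).

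In Hist3 (chr11:58948911-58955192) the H2A gene Hist3h2a measured 0.557 and 0.942 against 2.14 and 1.40 CPM (log2 -1.25, edgeR adjusted p = 0.047, up to 0.347 over the alternatives). Hist3h2ba, its H2B neighbour, measured 0.669 and 0.314 against 1.23 and 0.629 CPM and overlapped (log2 -0.90, edgeR adjusted p = 0.279). The Hist4 gene, Hist4h4 (chr6:136803993-136804431), had 0 and 3 counts in positive and 2 and 7 in negative libraries and was not tested. Of the other untested genes, all in Hist1 but Hist2h2ac, none was above 1.47 CPM in any library. The 13 untested genes together had 38 and 51 counts in the positive against 102 and 130 in the negative libraries.

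Several histone genes are near-identical copies, and their estimated counts were often not whole. The fit was made on rounded values. A fractional value stood in 45.9 to 68.9% of members per library, against 22.5 to 23.8% of all listed genes. The 17 members with whole counts in all 4 libraries summed to 24.0 and 23.4 CPM in the positive and 39.7 and 48.9 CPM in the negative libraries, with 9 of 14 tested genes called. The 44 with a fractional count summed to 46.9 and 46.1 against 71.6 and 94.9 CPM, with 15 of 34 called. The decrease was thus 1.87-fold in the former and 1.79-fold in the latter.

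Hist2h2aa1 and Hist2h2aa2, both H2A genes, are listed with the same coordinates (chr3:96239779-96246052), so their shares are uncertain and their sum is the safer value. Hist2h2aa1 took 56.0 and 96.8% of the pair's counts in positive and 47.6 and 96.8% in negative libraries. As a pair they had 35 and 43 counts in the positive against 116 and 199 in the negative libraries, which is 1.95 and 2.70 against 7.51 and 13.9 CPM, 4.61-fold lower without overlap. Taken singly, Hist2h2aa1 had a log2 change of -2.19 (edgeR adjusted p = 0.00191) and Hist2h2aa2 one of -2.23 (edgeR adjusted p = 0.0428). DESeq2 called neither, and without negative replicate 1 the estimate of Hist2h2aa2 turned to 0.16 (edgeR adjusted p = 0.931, the highest over the alternatives, the lowest being 2.32e-08).

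How alike this pair is can be seen in the 250 bases before each start, here from RefSeq, build GRCm38.p6, for Hist2h2aa1 at chr3:96245247-96245496 on the plus strand and Hist2h2aa2 at chr3:96240375-96240624 on the minus strand. Capitals mark their longest shared run, 169 bases.
Hist2h2aa1: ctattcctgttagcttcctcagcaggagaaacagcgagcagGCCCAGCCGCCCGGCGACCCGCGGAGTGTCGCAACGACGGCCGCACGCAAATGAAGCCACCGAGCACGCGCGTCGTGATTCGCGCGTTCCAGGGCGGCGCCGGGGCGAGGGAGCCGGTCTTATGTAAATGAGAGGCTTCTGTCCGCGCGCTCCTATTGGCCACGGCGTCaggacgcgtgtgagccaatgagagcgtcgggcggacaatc
Hist2h2aa2: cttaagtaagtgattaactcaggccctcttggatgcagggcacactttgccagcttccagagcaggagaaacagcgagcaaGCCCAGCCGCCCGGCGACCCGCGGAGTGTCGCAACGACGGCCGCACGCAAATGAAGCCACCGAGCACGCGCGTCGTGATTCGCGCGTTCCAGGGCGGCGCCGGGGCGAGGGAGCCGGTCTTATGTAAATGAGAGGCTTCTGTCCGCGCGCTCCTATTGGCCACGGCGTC
The run ends 40 bases before the start in Hist2h2aa1 and directly at the start in Hist2h2aa2, and by edit distance over the 300-base windows the pair is 72.7% identical. The 317 other pairs of the same type, the 4 pairs of copies apart, were 37 to 87% identical by the same measure, with a median of 47%.

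Hist1h2bq and Hist1h2br had the same estimated count in every library and the same listed coordinates (chr13:21806412-21837530), and their promoter windows are 100% identical. They are not separate measurements. Whether shared reads were split equally between them or 1 value was listed for both cannot be told from these values. In the latter case their sum, and each sum that includes both rows, counts the same reads more than once. The pair summed to 0.529 and 1.02 CPM in the positive against 2.09 and 2.97 CPM in the negative libraries, 3.26-fold lower. Hist1h2ao took 100% of the counts of its pair with Hist1h2ap in 3 libraries and 79.3% in negative replicate 1. The pair summed to 1.92 and 2.04 against 3.99 and 5.02 CPM, 2.27-fold lower. Its promoter windows were not among the same-type pairs that were at least 50% identical. The 2 listed starts are, however, placed differently relative to CCAAT. It stands 97 and 58 bases before the start and at it in Hist1h2ao, and 197, 158 and 100 bases before it in Hist1h2ap. The starts also lie 168 bases from that of Hist1h2bq and 268 from that of Hist1h2br. Such a shift counts as edits in this measure. The genes themselves were not compared, so how alike Hist1h2ao and Hist1h2ap are was not tested. Hist2h3c1 took 24.6% of the counts of its pair with Hist2h3c2 in all 4 libraries, a constant split, and their promoter windows are 89.7% identical. That pair, both H3 genes, summed to 2.99 and 3.15 against 4.83 and 8.58 CPM, 2.18-fold lower, while Hist2h3c2 alone passed the test (log2 -1.10, edgeR adjusted p = 0.00965) and Hist2h3c1 did not (log2 -1.13, edgeR adjusted p = 0.0793). Without these 8 rows, a setting chosen after seeing the data, the summed log2 change was -0.73.

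**Figure D3:**
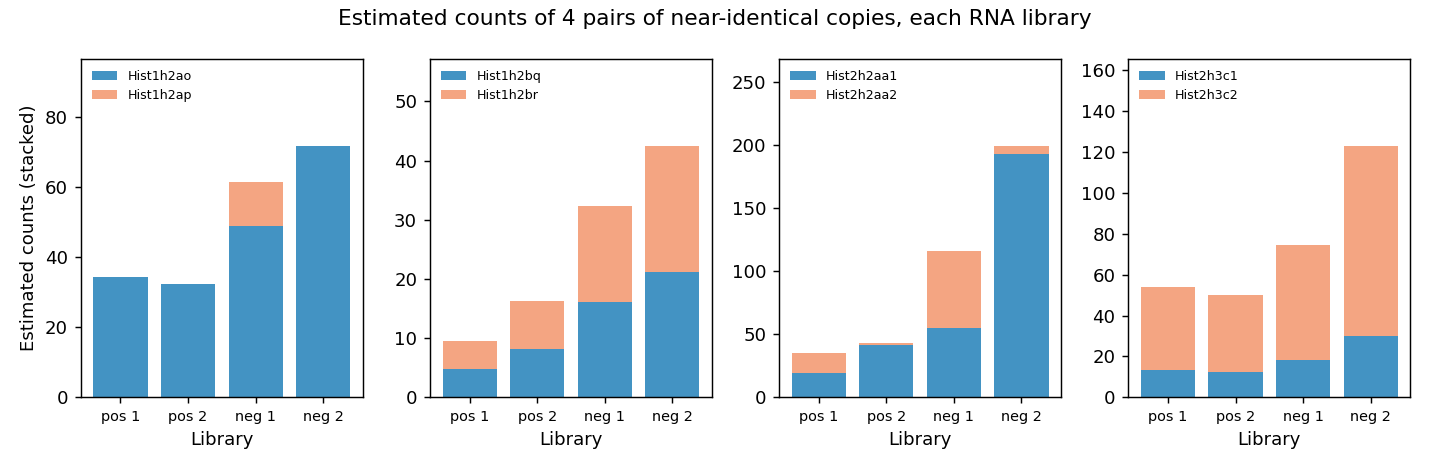
Estimated counts of 4 pairs of histone genes treated as copies, in each RNA library (horizontal axis). The vertical axis is stacked from 0, and each panel has its own scale. The split within a pair is constant for Hist1h2bq with Hist1h2br and for Hist2h3c1 with Hist2h3c2 and varies between libraries for the other pairs, while each pair's sum is lower in both positive than in both negative libraries.

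Many H2A and H2B genes stand back to back and share the DNA between their starts. There were 10 such pairs, with starts 164 to 268 bases apart, and in 3 of them both genes were tested. Hist1h2bq and Hist1h2ao both fell. Hist1h2bg fell while its partner Hist1h2ae, named here for its place beside it, did not pass the test (log2 -0.17). Hist1h2ag (log2 0.75) and its partner Hist1h2bj (log2 -0.68) were neither called. Hist1h2ak fell, and its partner Hist1h2bn was not tested, with counts of 2 and 3 in positive and 8.31 and 21 in negative libraries.

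To show the sequence before genes that fell and before one that did not, the 250 bases before the start are given for Hist1h2ak (chr13:21753913-21754162, minus strand), Hist1h3e (chr13:23562386-23562635, minus strand), Hist1h4h (chr13:23530794-23531043, plus strand) and Hist1h4i (chr13:22041363-22041612, minus strand), from RefSeq, build GRCm38.p6. Capitals mark the CCAAT element and the TATA box motif on either strand (a run ATTGG is the former read on the opposite strand). The stretch before Hist1h2ak contains the start of Hist1h2bn, 164 bases away.
Hist1h2ak: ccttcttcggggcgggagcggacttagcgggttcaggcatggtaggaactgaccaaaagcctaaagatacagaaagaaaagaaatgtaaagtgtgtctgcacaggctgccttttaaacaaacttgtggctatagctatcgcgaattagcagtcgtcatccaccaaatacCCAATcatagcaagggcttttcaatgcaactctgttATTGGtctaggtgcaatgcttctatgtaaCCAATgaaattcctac
Hist1h3e: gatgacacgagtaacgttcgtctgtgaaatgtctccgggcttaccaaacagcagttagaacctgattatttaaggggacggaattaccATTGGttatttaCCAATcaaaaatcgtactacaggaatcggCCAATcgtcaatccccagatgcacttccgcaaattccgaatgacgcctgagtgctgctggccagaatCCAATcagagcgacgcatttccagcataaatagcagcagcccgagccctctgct
Hist1h4h: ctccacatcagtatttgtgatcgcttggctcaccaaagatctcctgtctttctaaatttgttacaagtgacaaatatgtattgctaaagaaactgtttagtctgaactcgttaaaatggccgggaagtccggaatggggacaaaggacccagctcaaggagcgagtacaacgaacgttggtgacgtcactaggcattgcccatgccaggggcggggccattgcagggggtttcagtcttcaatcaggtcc
Hist1h4i: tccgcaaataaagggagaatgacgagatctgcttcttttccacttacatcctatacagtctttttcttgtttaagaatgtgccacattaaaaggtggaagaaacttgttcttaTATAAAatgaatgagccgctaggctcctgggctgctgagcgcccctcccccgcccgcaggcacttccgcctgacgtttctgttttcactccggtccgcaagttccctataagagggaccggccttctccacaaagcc
CCAAT occurs in Hist1h2ak and Hist1h3e, and neither motif was found in this window of Hist1h4h. Hist1h4i, which was not called, holds TATAAA but no CCAAT. This TATAAA lies 137 bases before the start, farther than the 26 to 33 bases seen in H1 genes.

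Promoter windows from 250 bases before to 50 after the start were found for 56 members (57 windows) and compared with all 32851 windows of the RefSeq table, on both strands. CCAAT, bound by NF-Y, stood in 86.0% of member windows and 37.4% of all. It was found in all 5 H1, 16 H2A, 15 H2B and 10 H3 windows but in 3 of 11 H4 windows. TATAAA stood in 52.6% of member windows and 13.6% of all, in some only after the start, as in Hist1h2ak. The octamer ATTTGCAT, bound by Oct factors, stood in 21.1% against 1.74%, in 6 of 16 H2A and 6 of 15 H2B windows and in 0 of the others. Windows of back-to-back genes overlap, so 1 site can count for both, as the octamer of Hist1h2ae and Hist1h2bg does. AAACACA stood in 10.5% against 7.18% of windows. None of the 4 motifs contains another. Windows of members that fell and of members not called held CCAAT in 83.3 and 85% and TATAAA in 54.2 and 40%.

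Few of the genes that make, process and handle histone RNA and protein fell. Of 17 genes for the transcription and processing of histone mRNA, 3 rose and 0 fell, against 11.3 and 13.6% of all tested genes, with a median log2 change of 0.07. Slbp, whose protein binds the histone stem-loop, was at 191 and 185 CPM in the positive and 168 and 160 CPM in the negative libraries (log2 0.20 ± 0.05, edgeR adjusted p = 0.00623), though it was not called without positive replicate 1 (0.117). Casp8ap2, a component of the histone locus body, rose (log2 0.27, edgeR adjusted p = 0.000738), as did Cpsf2, a subunit of the cleavage complex (log2 0.25, edgeR adjusted p = 0.00211). Npat, the activator of histone gene transcription, did not pass the test (log2 0.16, edgeR adjusted p = 0.06). With library size as the scaling, 7 of the 17 rose.

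Histone genes outside these clusters encode variants that are used throughout the cell cycle and mostly have mRNAs with poly(A) tails. Of 11 such genes 2 rose and 2 fell, against 11.3 and 13.6% of all tested genes, with a median log2 change of 0.07. H2afz rose, at 348 and 343 CPM against 256 and 292 CPM (log2 0.33 ± 0.05, edgeR adjusted p = 0.000166), and so did H2afj (log2 0.23). H2afx, known for both a stem-loop and a polyadenylated mRNA, fell, at 148 and 142 against 194 and 160 CPM (log2 -0.29 ± 0.07, edgeR adjusted p = 0.00485; 0.203 with DESeq2). Where the clustered genes as a group were 1.82-fold lower, the sum of the 11 was 2917 and 2929 CPM in the positive and 2792 and 2883 CPM in the negative libraries.

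Of 20 histone chaperones, which carry histones to DNA, 9 rose and 1 fell, against 11.3 and 13.6% of all tested genes. Their median log2 change was 0.11. Chaf1b (log2 0.25) and Asf1a (log2 0.24) rose, while Hjurp, the chaperone of the centromeric histone Cenpa, fell (log2 -0.29, edgeR adjusted p = 0.000545). Without positive replicate 1, 0 of the 20 rose, and without positive replicate 2, 2 did. Of 24 genes for S phase entry and DNA synthesis 18 rose and 0 fell, against the same shares of all tested genes, with a median of 0.22. They were led by the cyclin gene Ccne2 at 56.0 and 53.1 against 38.1 and 37.6 CPM (log2 0.53, edgeR adjusted p = 4.2e-05), Tyms (log2 0.41) and Cdc6 (log2 0.40). Without positive replicate 1, 9 of the 24 rose. The median change of the S phase genes was thus above 0 while that of the clustered histone genes was below it.

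Other RNAs that are made without a poly(A) tail were looked up after the histone values had been seen. Rn45s, the precursor of ribosomal RNA, made up 1.43 and 1.51% of all counts in positive against 3.20 and 3.58% in negative libraries (log2 -1.27 ± 0.06, edgeR adjusted p = 5.2e-11). Rpph1, the RNA of RNase P, had 143 and 190 counts against 294 and 337 (log2 -1.11, edgeR adjusted p = 6.39e-05). Rmrp, the RNA of RNase MRP, had 3 and 0 counts against 31 and 54 and also fell (edgeR adjusted p = 4.28e-05). Terc, the telomerase RNA, had 10 and 5 counts against 5 and 7 and was not tested. These tail-less RNAs and the histone genes were thus low in the same 2 libraries, with Terc apart, and the part of the RNA preparation in the histone result was not tested. With Rn45s left out of the table, all 24 members that fell were still called.

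**Figure D4:**
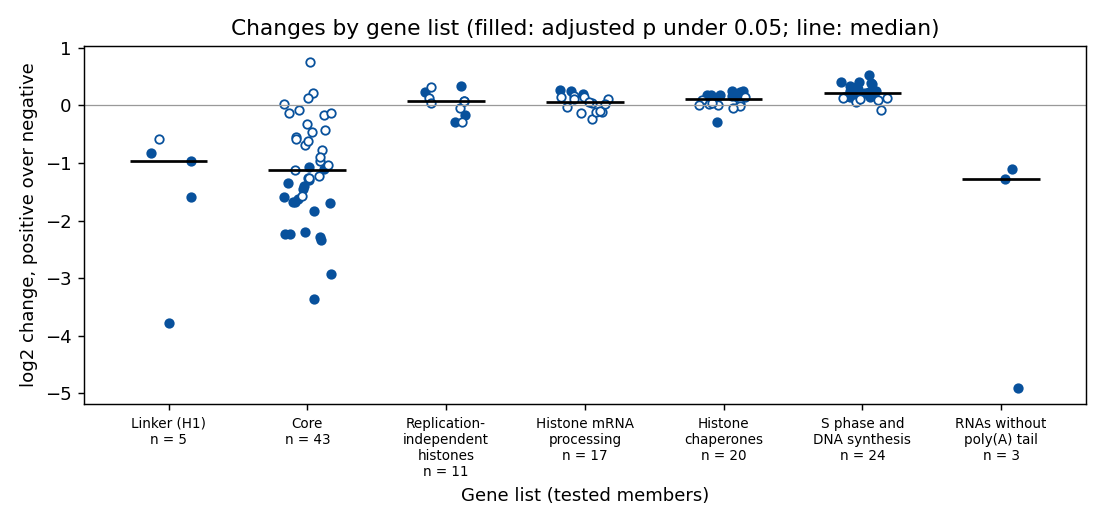
Log2 change, LC3-GFP positive over negative (vertical axis), of each tested gene in 7 lists (horizontal axis, with the number of tested genes); filled points have an edgeR adjusted p under 0.05 and lines are medians. Linker and core histone genes have medians of -0.97 and -1.13, RNAs without a poly(A) tail one of -1.27, and the other lists medians from 0.07 to 0.22.

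Open chromatin at the histone genes was read from the peaks that the authors called in each ATAC-seq library separately, by overlap of at least 1 base with the window from 250 bases before to 50 after the start. In cultured cells, 56 to 57 of the 61 members had a promoter peak per library (91.8 to 93.4%), against 88.2 to 89.5% of all listed genes. A peak was present in all 4 libraries for 55 members (87% of all genes) and in none for 4 (9.56% of all genes). In cells from the tumour, 51 to 56 members had a peak per library, 51 had one in all 8 libraries (81.5% of all genes), and 4 in none (9.27%). The 4 without a peak in any of these libraries were Hist1h2ao, Hist1h2ap, Hist1h2bq and Hist1h2br, which are rows treated here as copies. Whether reads shared between copies kept a peak from being called there was not tested. Neighbouring genes share peaks, so that the members rested on 36 to 38 distinct peaks per library in culture and 34 to 41 in the tumour. Libraries held 49634 to 63761 peaks in culture and 27406 to 55171 in the tumour.

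Accessibility calls differed between the sorted populations at 1 member in cultured cells. Hist1h3d had a peak in both positive libraries, with the authors' fold enrichments of 2.38 and 1.86, and in neither negative library, where 0.497% of all genes had this pattern. With a window of 1000 bases on each side or a −log10 q of at least 5 it was no longer positive-only. Its RNA was lower in the positive cells, and in the tumour its peak occurred in 2 of 4 negative and 0 of 4 positive libraries. A peak in both negative libraries and in neither positive one was seen at 0 members (0.234% of all genes). In the tumour 0 members were positive-only (0.0151% of all genes) and 0 negative-only (0.211%).

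Besides Hist1h3d, a peak was present in some tumour libraries and not in others at 5 members, named here after their values were seen. For positive and negative libraries in turn, peaks stood in 3 and 3 of 4 at Hist1h1b, in 1 and 2 at Hist1h2af, in 3 and 4 at Hist1h4b, in 3 and 4 at Hist1h4i and in 2 and 2 at Hist1h4m. In culture Hist1h2af had a peak in 1 of 2 positive and 2 of 2 negative libraries. Most members that fell in RNA therefore kept a promoter peak in both populations.

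The authors' peak values ranked these peaks in opposite ways. By fold enrichment, the median percentile of peaks at member starts among all peaks of a library was 32.6 to 34.8 in culture and 32.2 to 45.6 in the tumour, against 73.5 to 74.7 and 70.0 to 76.8 for peaks at all gene starts. By pileup, the height of the signal, their median percentile was 96.2 to 98.2 in culture and 89.7 to 94.6 in the tumour, against 86.8 to 89.4 and 77.2 to 88.7. Fold enrichment sets the height against the local background of the library. Peaks at histone starts were thus high in signal and low against their surroundings in both populations, and the ranges of positive and negative libraries overlapped.

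**Figure D5:**
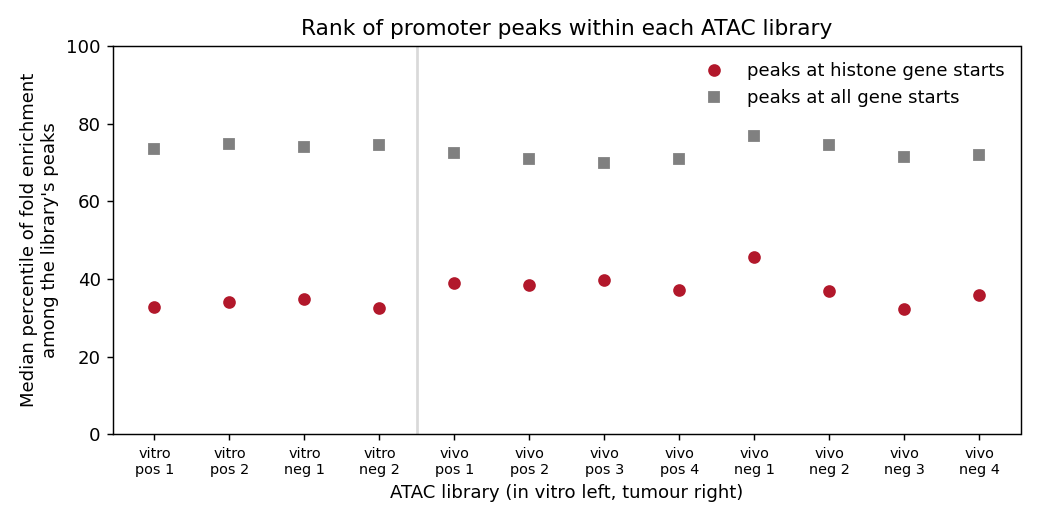
Median percentile of the authors' fold enrichment among all peaks of a library (vertical axis) for peaks at histone gene starts (red circles) and at all gene starts (grey squares), in each of 12 ATAC-seq libraries (horizontal axis). Histone starts lie between 32.2 and 45.6 and all gene starts between 70.0 and 76.8, in positive and negative libraries alike.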

How the data were processed

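RNA values are estimated counts per gene as the authors deposited them, some of them fractional. The submitters' processing notes name STAR, DESeq2 and Partek for RNA, cutadapt, BWA, MACS2 and Partek for ATAC-seq, and mm10. How the counts were made, strandedness and library selection are not given in the sources used here. Peak tables hold, per the file headers, the pileup signal, the fold enrichment ratio and the −log10 p-value and q-value of each peak, from the authors' call in each library.

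Counts were rounded and tested with edgeR 4.0.16 in R 4.3.3 (filterByExpr with a minimum count of 10, TMM scaling, quasi-likelihood test, Benjamini-Hochberg adjustment over 12022 genes, threshold 0.05). CPM uses TMM-scaled library sizes, and SE is the size of the log2 change divided by the square root of F. DESeq2 1.42.0, other scalings, no filter, a replicate block and leaving out libraries were alternatives. Intervals on count ratios are exact and cover counting error only.

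Promoter windows came from RefSeq for 10585 genes and otherwise from the coordinates in the RNA table for 2690. Coordinates of genes are RefSeq's on GRCm38 or those of the table. A planned comparison of the copies' proteins was not run, and their promoter windows were compared instead.

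Named genes were all linker genes, all genes of Hist2, Hist3 and Hist4, and in Hist1, per core type, the 3 called with the largest change and the 2 of highest mean CPM. Named from each other list were the 3 called genes with the largest change, with Slbp and Npat. The members and lists were chosen with earlier results of these data known. RNAs without a poly(A) tail were chosen after seeing the data. One marker gene is not reported here.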

Additional observations from a re-analysis of the deposited data

How the results depend on the processing

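The count of 24 members called lower became 9 with DESeq2 (52 members had an adjusted p) and ranged from 12 to 28 when single libraries were left out. It was 20 with library size as the scaling, under which the median of all tested genes shifted by 0.07. The count called higher, 0, became 1 (Hist1h2ag) with library size alone, and ranged from 0 to 1 when single libraries were left out. The replicate numbers were checked for pairing. Deviations from the group means correlated at 0.06 for the same number. With 2 libraries per group this value cannot decide whether the numbers pair the libraries. With the replicate block 1 member was called higher (Hist1h2ag) and 25 lower, the 24 and Hist1h1e. The summed log2 change of -0.86 stayed between -1.04 and -0.67 over the fits that leave out a library. Of the 48 tested members, 9 changed sign in some fit: Hist1h2ae, Hist1h2ai, Hist1h2bk, Hist1h3b, Hist1h4b, Hist1h4c, Hist2h2aa2, Hist2h3b and Hist2h4. Of these, Hist2h2aa2 was called with all libraries. Over the fits that leave out a library, log2 changes ranged from -0.72 to 0.80 for Hist1h2ae, from -0.49 to 0.32 for Hist1h2bk, from -0.92 to 0.19 for Hist2h3b, from -4.97 to 0.16 for Hist2h2aa2 and from -0.064 to 0.33 for Hist2h4. The cause was not tested.

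The 1 member with a positive-only promoter peak in culture became 0 with the wider window and 0 with the stricter q, and negative-only members ranged from 0 to 1 when single libraries were left out (Hist1h2af without positive replicate 1). Among the other lists, the 9 chaperones called higher became 5 with DESeq2 and as few as 0 without single libraries, the 18 S phase genes became 9 without positive replicate 1, and the 3 mRNA processing genes became 7 with library size alone and 5 with the block. Replication-independent histones had 1 to 5 higher and 0 to 2 lower over all settings. Low counts limit the depth: most members lie under 3 CPM, and 13 could not be tested.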
